A study of Homo sapiens with 2 samples.

Results

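The genes examined here are 10 sensors of foreign or misplaced nucleic acid and the adaptors and kinase that relay their signal. They are DDX58 (RIG-I), IFIH1 (MDA5), DHX58 (LGP2), TLR3, ZBP1, MB21D1 (cGAS), IFI16, MAVS, TMEM173 (STING) and TBK1. They were picked out by their gene symbols on the array, though with earlier results of these data known. They make up 10 of 43317 gene names, with 15 probes in all. Ca9-22 cells derive from a squamous cell carcinoma of the mouth (OSCC). Cells infected with a lentiviral vector that expresses the long noncoding RNA DLEU1 were compared with cells infected with the empty lentiviral control vector, and both were under blasticidin for 2 weeks. Both groups therefore carried a lentiviral vector, and the insert had been cloned from cDNA of KON, another OSCC line. Each group was 1 culture measured on 1 Agilent 1-colour array, so neither a test nor an SD between cultures was possible, and precision is limited by having 2 arrays in all.

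Cytosolic double-stranded RNA is bound by the RIG-I-like receptors RIG-I and MDA5, which act through the mitochondrial adaptor MAVS, whereas TLR3 senses double-stranded RNA in endosomes. Cytosolic DNA is bound by cGAS, which makes a cyclic dinucleotide that activates STING on the endoplasmic reticulum. Both routes meet at the kinase TBK1, which phosphorylates the transcription factor IRF3 and so switches on interferon genes. Several of the sensors are themselves interferon-stimulated genes (ISGs), the class of genes the study examined, and many ISG promoters carry an interferon-stimulated response element (ISRE).

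The promoters of the sensors were read first for the core letters of an ISRE, because a reporter driven by this element was part of the study. RefSeq windows on GRCh38.p14, from 250 bases before to 50 bases after a transcription start, were given for 6 of the 10 genes (DDX58, IFIH1, TLR3, MAVS, TBK1 and IFI16), which have 7 windows. The letters GAAA, NN and GAAA in a row (N is any base), on either strand, were present in the windows of 2 genes, IFIH1 and TLR3. Of 35116 windows of all genes, 3.57% held them. IFIH1 had 3 matches, starting at positions -159, -153 and -21 from the start, of which the first and second overlap. TLR3 had 1 match at position -4. The shorter letters GAAA, N and GAAA, also on either strand and searched after the sequences had been seen, were found in the DDX58 window at position -203 and in 1 of the 2 IFI16 windows at position -54, against 3.12% of all windows. Neither motif was in the windows of MAVS or TBK1. The windows of the RNA sensors that hold a match are shown so that the letters can be read in place, with capitals marking every match to either motif.
IFIH1, chr2:162318635-162318934, minus strand: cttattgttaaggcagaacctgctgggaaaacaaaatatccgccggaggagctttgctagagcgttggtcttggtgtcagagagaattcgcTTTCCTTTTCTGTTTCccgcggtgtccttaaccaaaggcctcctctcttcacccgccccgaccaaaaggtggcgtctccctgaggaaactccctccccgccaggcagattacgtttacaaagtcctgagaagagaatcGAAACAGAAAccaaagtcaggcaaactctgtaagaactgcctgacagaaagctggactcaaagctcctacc
TLR3, chr4:186068906-186069205, plus strand: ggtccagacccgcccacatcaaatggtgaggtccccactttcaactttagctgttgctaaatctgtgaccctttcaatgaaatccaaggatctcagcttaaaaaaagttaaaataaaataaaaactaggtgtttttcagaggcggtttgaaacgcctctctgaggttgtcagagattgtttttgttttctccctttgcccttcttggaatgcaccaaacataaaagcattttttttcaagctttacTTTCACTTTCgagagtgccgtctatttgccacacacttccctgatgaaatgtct
DDX58, chr9:32526147-32526446, minus strand: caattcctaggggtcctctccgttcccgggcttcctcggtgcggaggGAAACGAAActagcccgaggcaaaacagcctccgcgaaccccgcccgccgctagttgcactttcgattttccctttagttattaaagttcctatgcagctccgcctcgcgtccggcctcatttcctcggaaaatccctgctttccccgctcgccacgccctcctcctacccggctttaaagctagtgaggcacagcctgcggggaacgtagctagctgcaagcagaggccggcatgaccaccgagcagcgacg

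The vector was then checked. The brightest DLEU1 probe had a log2 level of 3.17 in control vector cells and 5.91 in DLEU1 vector cells, 6.67-fold higher. The other DLEU1 probes were dim and differed by less, by 0.85 (intensity 55.9 and 98.4) and 0.54 (33.4 and 47.4). A level is the log2 of the processed intensity minus the 75th percentile of that array, and every difference is DLEU1 vector minus control vector on this scale. A probe is called detected where the scanner software marked it as well above background, which held for 47.6% of 58201 probes in control vector cells and 48.1% in DLEU1 vector cells. The epithelial markers KRT5, KRT14, EPCAM, CDH1 and TP63 were detected on both arrays. Their summed intensity was 57519 in control vector cells and 180257 in DLEU1 vector cells. KRT5 (28686 and 119985) and KRT14 (5698 and 39953) made up most of the second sum. CDH1 and TP63 differed by 1.04 and 0.96, whereas EPCAM was lower with the DLEU1 vector, at 18084 and 10238 (-0.78). The CDH1 probe lies in the damaged strip described below, and its 100 nearest spots had a median difference of -0.45. Among immune markers, CD3E was detected on neither array. PTPRC was dim, at 72.7 and 96.9, as were CD14 (62.1 and 20.0) and ITGAM (58.9 and 36.7). Sums over 4 fibroblast markers were 367 and 5254, almost all of it COL1A1 on the DLEU1 vector array, with COL3A1 and DCN detected on neither array. Sums over 3 endothelial markers were 108 and 648, with PECAM1 detected on neither array and CDH5 at -0.59. Most of the second sum was 1 VWF probe (48.1 and 609), whereas another VWF probe differed by -0.07. Among 9 keratinocyte differentiation genes, 7 were detected on both arrays and differed by a median of 5.80, and 2 (KRT1 and LOR) were detected with the DLEU1 vector only. The 6 proliferation genes differed by a median of -2.81. The part that these states and markers play in the sensor values was not tested.

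Of the 10 sensor and adaptor genes, 9 were detected on both arrays, with 13 of their 15 probes, and ZBP1 was detected on neither. Among the 9, cGAS was past 2-fold lower and no gene was past 2-fold higher. Among all 20246 gene names detected on both arrays, 9.78% were past 2-fold lower and 9.18% past 2-fold higher (19.0% either way), so 1 lower gene of 9 is close to the background. Of the 13 detected member probes 1 was past 2-fold, and over 26279 probes detected on both arrays the shares were 9.78% lower, 8.98% higher and 18.8% either way. The differences ran from -1.31 (MB21D1) to 0.67 (IFI16) with a median of 0.23, whereas the median over all detected genes was -0.07. A positive difference was found for 6 of the 9 genes and for 45.8% of all detected genes. Each member probe had 1 spot. The scanner software gave each difference an error of about 0.20, and 259 replicated probes with an intensity over 500 had an SD of 0.0618 between spots. That SD was 0.137 for 18 probes between 100 and 500, and 0.308 for 5 probes under 100. None of these values holds the spread between cultures.

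**Figure D1:**
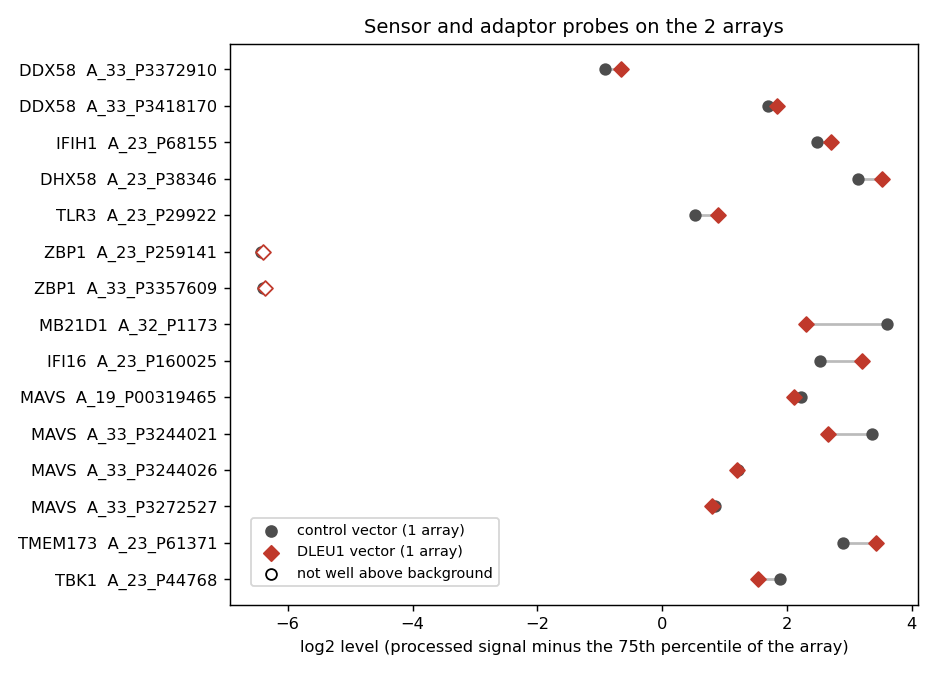
Log2 level of each sensor and adaptor probe (rows) with the control vector (circles) and the DLEU1 vector (diamonds), 1 array each, with open symbols for probes not well above background. Levels are to be compared along a row and not between rows. The widest gap is that of MB21D1, from 3.61 down to 2.30, and both ZBP1 probes lie below -6.37.

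The RNA sensors came first in the pathway and differed by less than 2-fold. DDX58 encodes RIG-I, the receptor for short double-stranded RNA with a triphosphate end. Its brighter probe, A_33_P3418170 (hg19 chromosome 9, 32455728 to 32455787, minus strand), had an intensity of 784 in control vector cells and 844 in DLEU1 vector cells. Its other probe, A_33_P3372910 (32455398 to 32455457), had 129 and 149. The differences of 0.15 and 0.25 went the same way. The first was within the software error and the second only just beyond its error of 0.21.

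IFIH1 encodes MDA5, the receptor for long double-stranded RNA. Its probe A_23_P68155 (chromosome 2, 163128806 to 163128865, minus strand) had an intensity of 1350.4 in control vector cells and 1541 in DLEU1 vector cells, a difference of 0.23. DHX58 encodes LGP2, a relative of RIG-I and MDA5 that lacks their signalling domains and modulates them. Its probe A_23_P38346 (chromosome 17, 40253459 to 40253518, minus strand) had 2127 and 2705, a difference of 0.38. The RIG-I-like receptors were thus between 1.11-fold and 1.31-fold higher with the DLEU1 vector, a sign that turned for all 3 with spike-in scaling. Of probes of the same brightness, 21.0% were at least as far up as DHX58, 29.3% as IFIH1 and 35.9% as the brighter DDX58 probe.

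TLR3 is the Toll-like receptor for double-stranded RNA in endosomes. Its probe A_23_P29922 (chromosome 4, 187005890 to 187005949, plus strand) had an intensity of 350 in control vector cells and 441 in DLEU1 vector cells. The difference of 0.37 was 1.29-fold, larger than its software error of 0.20 and within 2-fold. The genes whose windows are printed above, IFIH1, TLR3 and DDX58, were slightly higher in sign, except with spike-in scaling. DDX58 held only the shorter motif. Of 46 other sensing genes with a window, from the list grouped by role below, 11 held the longer motif. Those of the 11 that were detected on both arrays carried both signs, from -1.10 (IFNL2, dim) to 0.67 (MYD88). Over all genes detected on both arrays with a promoter window, the median difference was -0.01 for 473 genes with the longer motif and -0.11 for 11122 genes without it.

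ZBP1 senses Z-form RNA and DNA and can start cell death by necroptosis. Its probes A_23_P259141 (chromosome 20, 56179210 to 56179269, minus strand) and A_33_P3357609 (56188237 to 56188296) were not well above background on either array. The intensities were 2.82 and 2.80 for the first and 2.87 and 2.85 for the second, which are surrogate values the software sets for spots at background. No fold is given for ZBP1.

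The DNA sensors cGAS and IFI16 differed in opposite directions. MB21D1 encodes cGAS, the enzyme that is activated by cytosolic DNA. Its only probe, A_32_P1173 (chromosome 6, 74138467 to 74138526, minus strand), had an intensity of 2952 in control vector cells and 1162 in DLEU1 vector cells, which is 2.47-fold lower. The difference of -1.31 was 16.3 times the SD between spots over all 282 replicated probes (0.0800) and larger than the software error of 0.20. Of probes in the same of 10 brightness classes, 5.86% were at least as low. The probe shared no run of 16 bases with a probe of another gene, and bases 31 to 60 of its 60 are shown to identify it.
MB21D1, A_32_P1173: gaaattttgaacaatcatggaaaatctaaa
The 100 detected spots nearest to this probe had a median difference of -0.12, so the neighbourhood on the array was close to the rest. The cGAS value rests on this 1 spot per array.

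IFI16 encodes a nuclear and cytosolic DNA-binding protein that acts with STING. Its probe A_23_P160025 (chromosome 1, 159024619 to 159024678, plus strand) had an intensity of 1400.1 in control vector cells and 2175 in DLEU1 vector cells, a difference of 0.67 or 1.59-fold. Of probes of the same brightness, 14.0% were at least as far up. IFI16 was thus the highest of the 9 genes and cGAS the lowest.

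**Figure D2:**
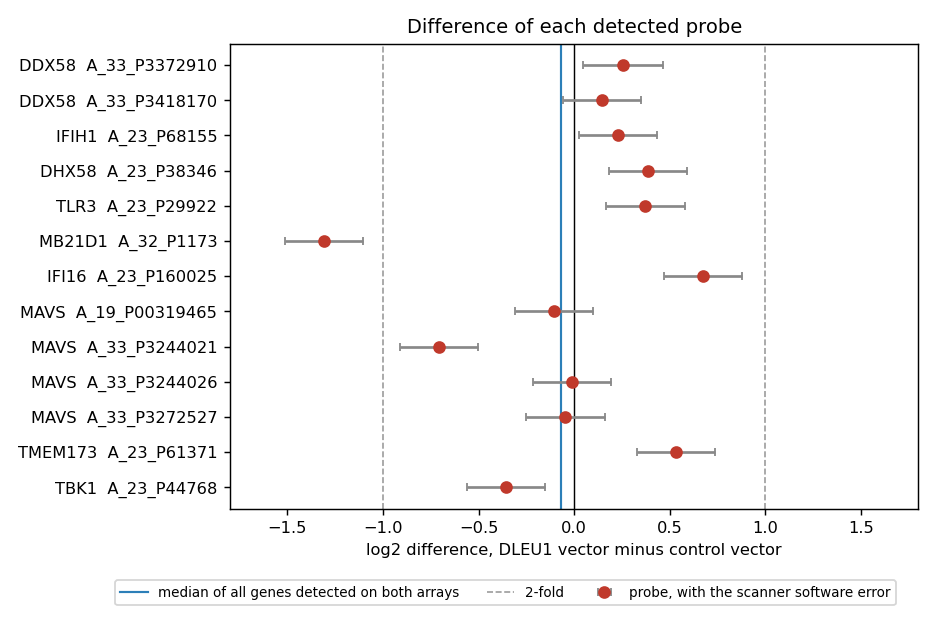
Log2 difference, DLEU1 vector minus control vector, of the 13 detected sensor and adaptor probes. Points are single probes, bars the error given by the scanner software (about 0.20), dashed lines 2-fold and the blue line the median of all detected genes (-0.07). MB21D1 is the only probe beyond a dashed line.

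The adaptors carried both signs. TMEM173 encodes STING, which is activated by the product of cGAS. Its probe A_23_P61371 (chromosome 5, 138855597 to 138855656, minus strand) had an intensity of 1803 in control vector cells and 2543 in DLEU1 vector cells, a difference of 0.53 or 1.45-fold. Of probes of the same brightness, 17.9% were at least as far up. STING was thus higher in sign while its upstream enzyme was lower.

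MAVS, the adaptor of the RIG-I-like receptors, had 4 probes that disagreed. The brightest, A_33_P3244021 (chromosome 20, 3847884 to 3847943, plus strand), had an intensity of 2506 in control vector cells and 1497 in DLEU1 vector cells, a difference of -0.71. A_19_P00319465 (3855582 to 3855641) had 1130 and 1023, a difference of -0.11. A_33_P3244026 (3856703 to 3856762) had 560.3 and 542, a difference of -0.01. A_33_P3272527 (3835323 to 3835382) had 434 and 409, a difference of -0.05.

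Thus 3 of the 4 MAVS probes differed by -0.11 to -0.01, within the software error, and the brightest by -0.71. Over 179 genes with 4 detected probes the median range between probes was 0.71, and 51.4% had a range at least as wide as the 0.70 of MAVS. The value of the gene was taken from its brightest probe (-0.71) and was -0.22 as the mean of the 4. The array lists transcript NM_020746 for 3 of the probes and NM_001206491 for A_33_P3272527. The ends of the 4 probes (bases 31 to 60 of 60) are shown because the brightest has a sequence feature the others lack. It is an alternating run of T and A, in capitals.
A_33_P3244021: aggataagTATATATATATATttcccagtg
A_19_P00319465: gtcattgcttactacacccacaaacattct
A_33_P3244026: tgtacaataaatctgctattattacttcta
A_33_P3272527: ctgccttacctgccctgcctcacagcaaga
The run was 13 bases long and a run of at least 12 was found in 6 of all probes. Besides MAVS, 2 of these were detected on both arrays, and they differed by -0.55 and 0.42. The same MAVS probe shared a run of at least 16 bases with a probe of TCF7L2, and 1 ZBP1 probe did so with a probe of FLJ36777, whereas the other 13 member probes shared none. The part of these features in the MAVS value was not tested.

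**Figure D3:**
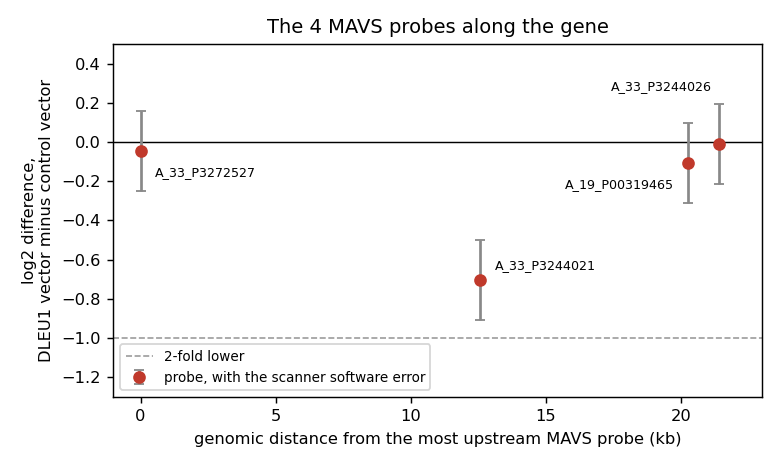
Log2 difference of the 4 MAVS probes against their genomic distance from the most upstream probe, with the error given by the scanner software as bars. The probe 12561 bases downstream lies at -0.71, and the other 3 lie between -0.11 and -0.01.

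TBK1 is the kinase on which the RNA and DNA routes converge. Its probe A_23_P44768 (chromosome 12, 64895443 to 64895502, plus strand) had an intensity of 897 in control vector cells and 683 in DLEU1 vector cells. The difference of -0.36 was 1.28-fold lower, and 35.2% of probes of the same brightness were at least as low.

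To place these genes in their pathway, 57 other sensing genes were grouped by role. Of these, 47 were detected on both arrays, 2 were past 2-fold higher and 6 past 2-fold lower, with a median of -0.15. The genes nearest to that median were DDX41, a helicase reported to bind DNA (-0.15), and IRAK4, a kinase downstream of Toll-like receptors (-0.14). The shares past 2-fold, 2 and 6 of 47, stand beside the 9.18% and 9.78% of all genes.

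The partners of RNA sensing showed no gene past 2-fold. All 10 were detected and they ranged from -0.66 (DDX3X) to 0.22 (ADAR, the enzyme that edits double-stranded RNA so that MDA5 does not bind it). The endosomal group had 5 of 8 genes detected on both arrays and a median of -0.01, and MYD88, the adaptor of TLR7, TLR8 and TLR9, was its highest member at 0.67. TLR7, TLR8 and TLR9 were detected on neither array, so TLR3 was the only nucleic acid receptor of the Toll-like family with a signal.

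The DNA sensing partners and nucleases were lower in sign for 11 of 13 detected genes, with a median of -0.61, and 3 were past 2-fold lower. Over all detected genes the median was -0.07, 45.8% were positive in sign and 9.78% were past 2-fold lower. RNASEH2A and RNASEH2B are subunits of RNase H2, which removes RNA from DNA and whose loss is known to activate cGAS. RNASEH2A had an intensity of 14744 in control vector cells and 2682 in DLEU1 vector cells (5.36-fold lower), and RNASEH2B had 2840 and 871 (3.18-fold lower). The remaining subunit, RNASEH2C, differed by -0.74. PRKDC, the catalytic subunit of DNA-dependent protein kinase, had 1712 and 553 (3.02-fold lower), and its DNA-binding subunits XRCC5 and XRCC6 differed by -0.61 and -0.77. TREX1, the nuclease that degrades cytosolic DNA, differed by -0.25, and AIM2, the inflammasome DNA sensor, by 0.20. All 6 proliferation genes were past 2-fold lower on the same arrays, from -3.09 (MKI67) to -1.95 (PCNA), and their part in this group was not tested.

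Among the kinase complex and transcription factors, all 11 genes were detected and 2 were past 2-fold, in opposite directions. With 1 of 11 higher and 1 of 11 lower, the group was close to the shares of all detected genes, 9.18% and 9.78%. OPTN, a ubiquitin-binding partner of TBK1, had 1381 and 3379.9 (2.51-fold higher). TRAF3, a ubiquitin ligase between MAVS and TBK1, had 297 and 95.4 (3.03-fold lower). The transcription factors downstream of TBK1, IRF3 and IRF7, differed by 0.11 and 0.76, and the related kinase IKBKE was dim, at 28.0 and 24.1.

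Of the genes through which ZBP1 starts cell death, 4 of 5 were detected on both arrays. MLKL, which ruptures the plasma membrane in necroptosis, had 3342 in control vector cells and 1281 in DLEU1 vector cells (2.54-fold lower). RIPK3, the kinase between ZBP1 and MLKL, was detected on neither array, as was ZBP1 itself. RIPK1 differed by 0.03, CASP8 by -0.74 and FADD by -0.49.

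The secreted outputs of the pathway were at or near background. IFNB1, IFNL1, IFNL3 and CCL5 were detected on neither array. IFNL2 was dim, with 36.0 and 16.4 (2.14-fold lower), and its probe may read the closely related IFNL3 as well. CXCL10 was well above background with the control vector only, at 38.5 against 2.99, at least 2.62-fold lower with the DLEU1 vector. STAT2, a subunit of the ISGF3 complex that carries the interferon signal to ISREs, had 4241 and 15847 (3.84-fold higher). IRF9, also of that complex, differed by 0.79. The 2 IRF9 probes disagreed, at 0.79 and -0.20. A dimmer probe of RNF125 and of SAMHD1 was past 2-fold lower (-1.07 and -1.08), whereas their brightest probes differed by -0.33 and -0.34.

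**Figure D4:**
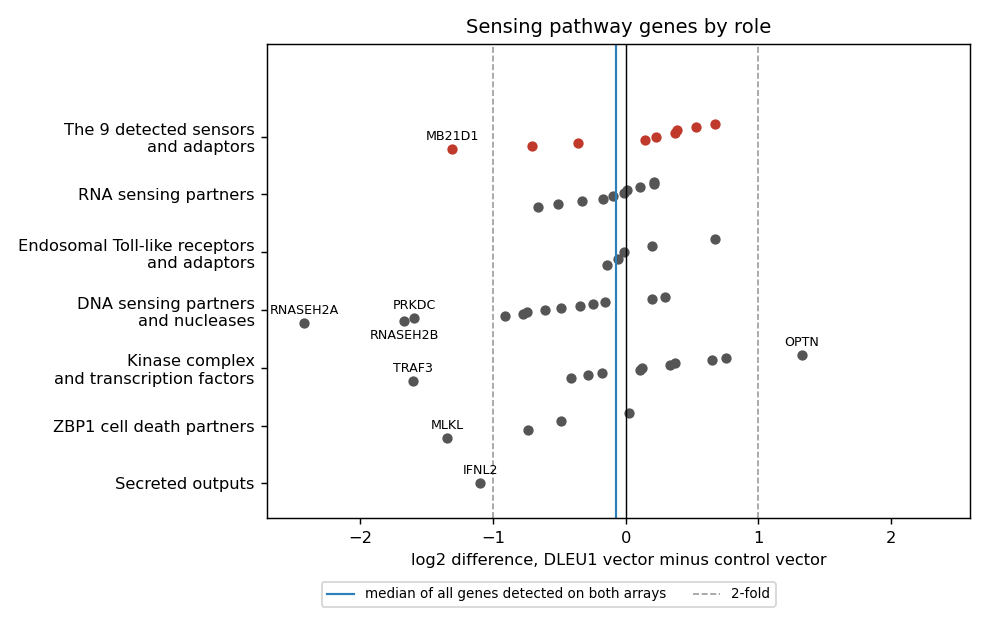
Log2 difference of the genes detected on both arrays, by role in nucleic acid sensing (ISGF3 subunits are not drawn), with the 9 detected sensors and adaptors in red on top. Dashed lines mark 2-fold and the blue line the median of all detected genes (-0.07). Names are given for genes past 2-fold, and 3 of these (RNASEH2A, RNASEH2B and PRKDC) are DNA sensing partners and nucleases.

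The signs of the smaller differences depended on how the arrays were scaled. MB21D1 was past 2-fold lower in each of the 9 other settings that moved its value, from -1.77 to -1.14, and the other 5 left it as it was. IFI16 and TMEM173 stayed higher and TBK1 and MAVS lower in sign in the settings that moved them. DDX58, IFIH1, DHX58 and TLR3 were higher in sign in every setting except one that sets the spike-in probes equal, under which they differed by -0.32, -0.24, -0.08 and -0.09. That setting lowered the median of all detected genes by 0.46, to -0.53.

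**Figure D5:**
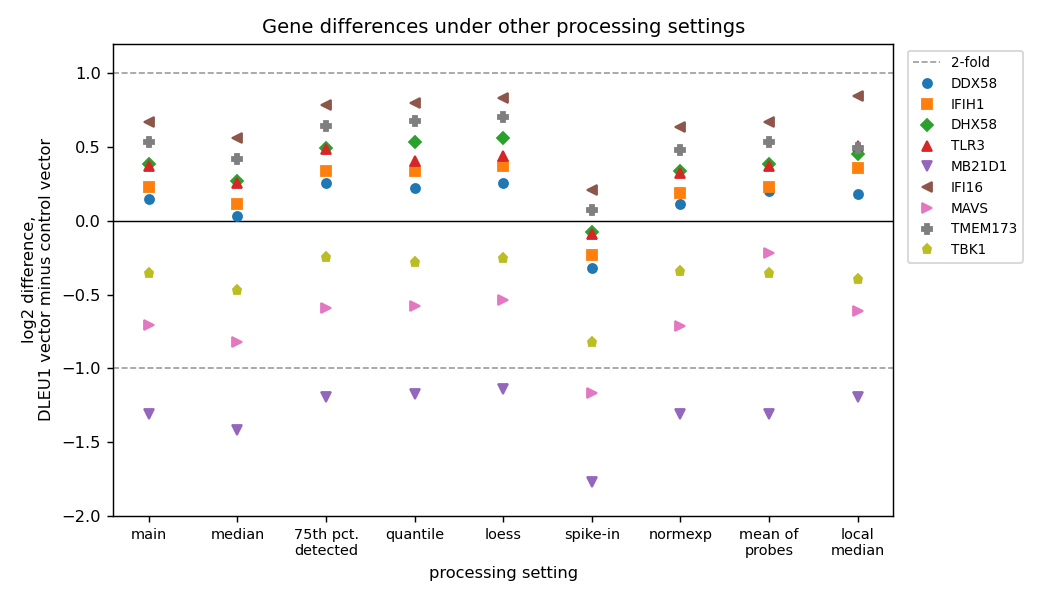
Log2 difference of the 9 detected genes under the main setting and 8 others. Dashed lines mark 2-fold. MB21D1 lies below the lower line in each column, MAVS crosses it with spike-in scaling only (-1.17), and spike-in scaling places DDX58, IFIH1, DHX58 and TLR3 below 0.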

How the data were processed

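Total RNA (100 ng per sample) was labelled with Cy3 and hybridised to SurePrint G3 Human GE v3 arrays. The intensity values deposited by the authors were made with Agilent Feature Extraction (10.7.3.1 in the file header), which subtracted background, detrended each array and set surrogate values for dim spots. The authors' series values were the same intensity, rounded (largest difference 0.497%). Neither was normalized between arrays. Probe positions are on hg19, and exon or UTR placement was not analysed here, nor were protein sequences.

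Control spots and outlier spots (84 on the control vector array, 103 on the DLEU1 vector array) were left out, and 0 spots were saturated. Intensities were put on the log2 scale, repeated spots were averaged per probe, and each array's 75th percentile was subtracted. Where several probes of a gene were detected on both arrays, the brightest gave the gene value. The threshold was 2-fold. For CXCL10, detected on 1 array, the fold is a bound against the higher of the dim probe's own signal and the lowest detected signal. Named were all members with every probe, DLEU1, and from the pathway list the genes past 2-fold, those detected on 1 array and the 2 nearest to the median. Pathway genes and markers outside this rule were named after their values were seen. The members and lists were chosen with earlier results of these data known. Of the listed genes, 1 marker and 1 pathway gene are not reported here by value, though list counts and medians include them. The scripts were tested on simulated data. R 4.3.3, limma 3.58.1 and Python 3.11.15 were used.

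Alternatives were other scalings (median, 75th percentile over detected probes, quantile, loess with a span of 0.3, none, spike-in), normexp (offset 50), use of the rounded series values, other filters on dim probes, the mean of probes, thresholds of 1.5-fold and 3-fold, leaving out a damaged strip of the DLEU1 vector array, and subtracting the median of the 100 nearest spots. The strip held 288 spots and 0 member probes.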

Additional observations from a re-analysis of the deposited data

How the results depend on the processing

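With 1 array per group, no paired analysis was possible because each group holds 1 array, and no replicate could be left out. The median difference of the detected sensors and adaptors was 0.23, and that of the pathway list -0.15. In this order they were 0.11 and -0.27 with median scaling, 0.34 and -0.043 with the 75th percentile taken over detected probes, 0.34 and -0.052 with quantile normalization, 0.37 and -0.020 with loess, and -0.24 and -0.62 with spike-in scaling. Subtracting the median of the 100 nearest spots gave 0.36 for the sensors and adaptors. Spike-in scaling, which rests on 8 spike-in probes, gave 2 sensors and adaptors past 2-fold lower (MB21D1 and MAVS) instead of 1, and 1 pathway gene higher and 12 lower instead of 2 and 6. Where an intensity of at least 100 was required on both arrays, 4 of 43 pathway genes were past 2-fold lower. With no filter on dim probes 9 of 57 were, and 2 were higher in both settings. By construction, the 1.5-fold threshold gave 1 sensor or adaptor higher and 2 lower, and 6 pathway genes higher and 12 lower. The 3-fold threshold gave 0 sensors and adaptors lower, and 1 pathway gene higher and 4 lower. The shares of all genes past a threshold were computed for the main setting only. The counts under other scalings, filters and thresholds therefore have no background share beside them and are not read as results about these genes. Of 126 values of the 9 genes under alternatives, 83 differed from the main value, 48 moved by more than the spot SD of 0.0800 and 4 changed sign, all with spike-in scaling. The median of all detected genes moved by -0.11 with median scaling and 0.11 where the percentile came from detected probes. With no filter on dim probes the median was taken over all genes, detected or not. It lay 0.11 above the main median, which is over detected genes only. The signal over background limits ZBP1, the secreted outputs and IKBKE. The damaged strip held 0 member probes.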
